A study of Mus musculus with 32 samples.

Results

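The 36 genes described here are expressed by the cells that build small blood vessels of the brain. They were picked by name from the 56415 genes of the annotated count table. Of these, 23 are expressed by endothelial cells, which line the vessel, and 13 by mural cells, which wrap around it: 10 are known from pericytes and 3 from vascular smooth muscle.

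Brain endothelial cells form the blood-brain barrier: tight junctions seal the gaps between them, and transporters carry selected nutrients in and return many foreign compounds to the blood. Endothelial cells recruit pericytes with the growth factor PDGF-B, which the pericytes sense through the receptor PDGFRB, and VEGF, angiopoietin, Wnt and Notch signals maintain the pair. Smooth muscle surrounds arterioles and sets their diameter.

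Polyadenylated RNA was sequenced from 2 brain regions of 16 mice on the C57BL/6J background, the cerebellar vermis and the dorsal hippocampus, with 1 library per mouse and region. In each region there were 4 groups of 4 mice (2 females and 2 males): ACSS2 knockout with chronic prenatal alcohol exposure (KO ethanol), ACSS2 knockout with prenatal saline (KO saline), wild type with alcohol (WT ethanol) and wild type with saline (WT saline). ACSS2 makes acetyl-CoA from acetate, a breakdown product of ethanol. Dams received 1 injection a day into the peritoneum until birth, of ethanol at 3 g/kg in a 20% solution or of saline, and the offspring were killed between postnatal days 40 and 50, long after exposure had ended. How the knockout was made and which litters the mice came from are not given in the sources used here. The p-values therefore measure the spread between mice, not between litters. If mice of a group shared a litter, group differences could hold litter differences that this spread leaves out.

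Libraries held 23085928 to 73803508 counts in the vermis and 54092519 to 96664509 in the hippocampus, and the KO ethanol vermis library of female F3 was the shallowest of all. Acss2 itself was at 10.6 to 19.8 CPM (counts scaled to the library total) in KO vermes and 10.8 to 13.8 CPM in KO hippocampi, against 55.1 to 66.7 CPM in WT vermes and 51.0 to 64.4 CPM in WT hippocampi, so all 32 libraries matched their genotype label. Some libraries stood apart from their groups. The KO ethanol vermis of female F1 had a summed Purkinje neuron signal of 2337 CPM against 4882 to 8162 CPM in the other 3 of its group, and a summed oligodendrocyte signal of 12534 CPM against 4222 to 5389 CPM. The WT ethanol vermis of male M3 had the highest mural signal of its group. The WT saline vermis of female F1 held 54636 CPM of the 18S ribosomal RNA gene Rn18s-rs5, against 2190 to 2545 CPM in the other 3 of its group. Choroid plexus and ependymal signals varied widely within groups in the hippocampus. Where leaving out one of these vermis libraries changed a call, that is given beside it. In whole tissue, fewer cells of a type and less RNA per cell cannot be told apart.

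The promoters of 4 endothelial genes are shown because their transcripts carried the main results. They are Cldn5 (ENSMUSG00000041378), Cysltr2 (ENSMUSG00000033470), Klf2 (ENSMUSG00000055148) and Slc2a1 (ENSMUSG00000028645). Each window runs 5′ to 3′ on the gene's strand from 250 bases before to 50 bases after the annotated start, from RefSeq on GRCm38.p6. Capitals mark the letters GGGCGG (GC box), CCACCC (KLF-type box), TATAAA or GCGTG (hypoxia-response core), searched on both strands.
Cldn5 promoter, chr16:18776597-18776896, plus strand: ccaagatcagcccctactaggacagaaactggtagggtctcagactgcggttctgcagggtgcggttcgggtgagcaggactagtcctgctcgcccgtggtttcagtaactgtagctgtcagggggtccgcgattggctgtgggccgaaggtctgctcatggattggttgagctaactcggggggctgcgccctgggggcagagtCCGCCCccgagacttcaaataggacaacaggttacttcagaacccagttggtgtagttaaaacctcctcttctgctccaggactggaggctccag
Cysltr2 promoter, chr14:73049065-73049364, minus strand: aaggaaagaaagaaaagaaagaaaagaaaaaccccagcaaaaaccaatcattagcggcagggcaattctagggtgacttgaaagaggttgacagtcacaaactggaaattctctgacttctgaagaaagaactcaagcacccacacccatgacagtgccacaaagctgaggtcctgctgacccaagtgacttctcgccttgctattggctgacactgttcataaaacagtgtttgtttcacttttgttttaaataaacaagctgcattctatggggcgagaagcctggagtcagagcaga
Klf2 promoter, chr8:72318812-72319111, plus strand: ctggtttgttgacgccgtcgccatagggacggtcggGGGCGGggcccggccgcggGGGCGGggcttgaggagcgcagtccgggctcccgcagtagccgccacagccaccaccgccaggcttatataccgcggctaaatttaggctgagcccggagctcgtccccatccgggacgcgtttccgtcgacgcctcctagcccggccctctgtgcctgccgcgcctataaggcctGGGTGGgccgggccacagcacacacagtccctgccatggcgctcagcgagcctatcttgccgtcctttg
Slc2a1 promoter, chr4:119108495-119108794, plus strand: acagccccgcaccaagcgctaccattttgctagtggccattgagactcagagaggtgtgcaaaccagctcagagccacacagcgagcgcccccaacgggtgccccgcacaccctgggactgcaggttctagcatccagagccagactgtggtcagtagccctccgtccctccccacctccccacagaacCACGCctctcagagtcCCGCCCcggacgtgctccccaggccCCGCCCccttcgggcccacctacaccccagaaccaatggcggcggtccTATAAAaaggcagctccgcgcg
None of the 4 motifs was found in the Cysltr2 window. GGGCGG occurred in 8 of the 20 windows of endothelial members, in 4 of the 8 windows of mural members and in 35.7% of all 32851 windows of the table. CCACCC occurred in 10 of 20 endothelial and 4 of 8 mural windows and in 31.5% of all windows, and GCGTG in 8 and 5 of them and in 32.4% of all. TATAAA was in 3 endothelial windows and 1 mural window and in 13.6% of all. CGGAAG (ETS core) was in 1 endothelial window, no mural window and 16.9% of all. AACAAAG (SOX-type) was in 1 endothelial window, no mural window and 5.85% of all. The CArG box, the serum response element of smooth muscle genes, was searched only as exact CCWWWWWWGG, with W being A or T. That exact form was in no member window and 1.63% of all. Boxes with a changed letter, such as CCCTATATGG in the Acta2 window, were not counted. These matches describe letters in the windows. The windows covered 24 of the 36 members, some with more than 1 start.

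All 36 genes were detected in every library and passed the filter on low counts in both regions. Per kilobase of exon, the glucose transporter gene Slc2a1 had the highest level in the vermis (24.8 ± 4.3 CPM per kb, SD, n = 16), followed by the pericyte genes Vtn (22.3 ± 3.6) and Rgs5 (21.4 ± 2.3) and by Cldn5 (19.4 ± 6.6). In the hippocampus the same 4 genes led, with Slc2a1 at 20.9 ± 3.5, Rgs5 at 18.6 ± 2.2, Vtn at 15.3 ± 2.8 and Cldn5 at 14 ± 4.6 CPM per kb. Neighbours among these 4 genes differed, in both regions, by less than the sum of their SDs. Cysltr2 had the lowest level in both regions, at 0.134 ± 0.11 CPM per kb in the vermis and 0.151 ± 0.103 in the hippocampus. The 23 endothelial and 13 mural genes were mixed, but not evenly. After Vtn and Rgs5, the next mural gene was Pdgfrb, at rank 15 in the vermis and 14 in the hippocampus. All other mural genes followed from rank 21 (Notch3) in the vermis and 18 (Acta2) in the hippocampus.

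**Figure D1:**
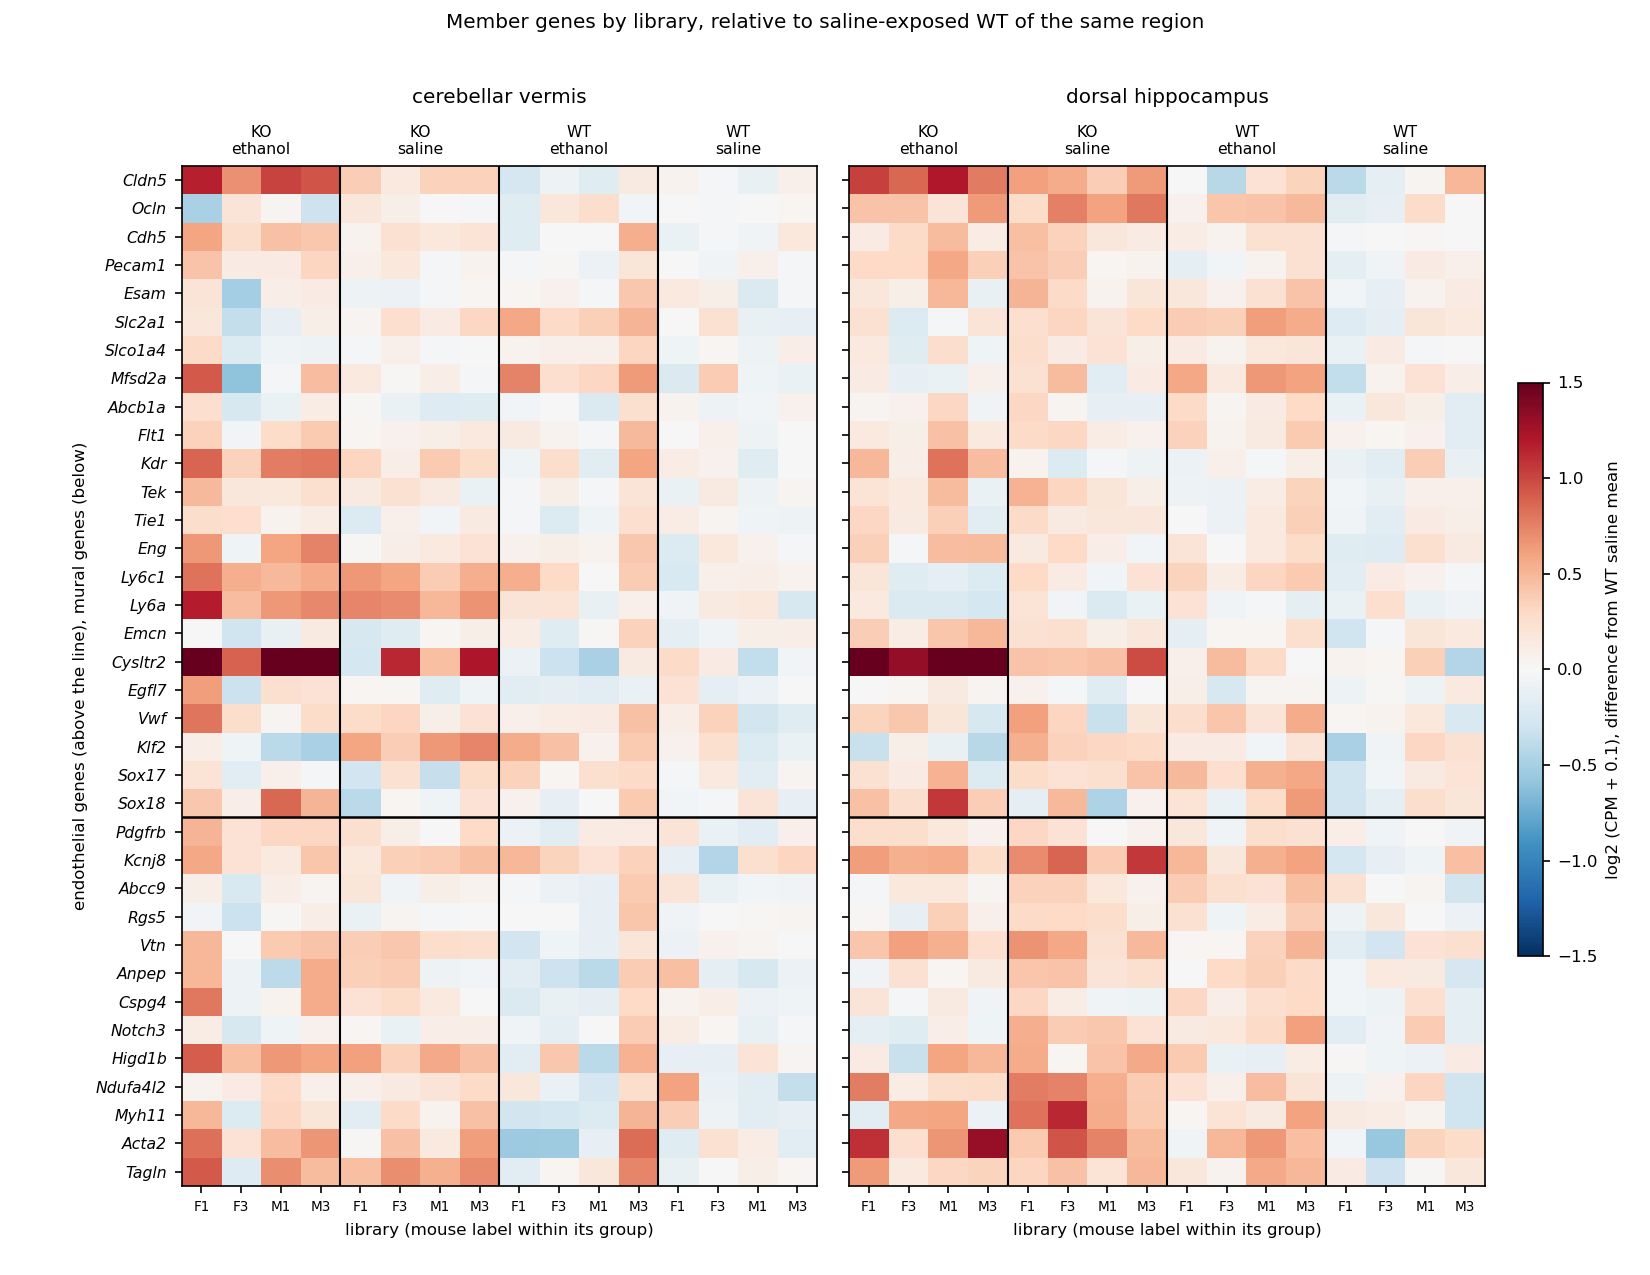
Level of each of the 36 genes (rows, grouped by role) in each of the 32 libraries (columns, grouped by region, genotype and exposure), as log2(CPM + 0.1) minus the mean of the WT saline libraries of the same region, with colours cut at 1.5 in either direction. Cldn5 and Cysltr2 stand out in the KO ethanol columns of both regions, and most mural rows are above 0 in the KO saline columns of the hippocampus.

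Genotype was compared within each exposure and region, and exposure within each genotype and region, which makes 8 comparisons. They share groups: each group of 4 libraries enters 2 of the 4 comparisons of its region, so the 4 are not independent. The members were chosen with earlier results of these data known. The share of all genes beside a count of members is therefore a reference, not a test. Of the 36 members, 9 passed an adjusted p of 0.05 in at least 1 of the 8 (edgeR quasi-likelihood F-test, Benjamini-Hochberg over all genes tested), namely 7 endothelial and 2 mural. The remaining 27 had log2 fold changes between -0.50 and 0.78 in these comparisons, with a smallest adjusted p of 0.0761. Below, groups whose libraries did not overlap are named for single genes as a description only. Of all genes, 12.7% did not overlap, in either direction, in KO against WT vermes under ethanol and 13% under saline. In the other comparisons the share was 4.66% to 6.36%.

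In the ethanol-exposed vermis, 8 members differed in KO against WT mice, where 7.53% of all 22441 genes tested did. Cldn5, Cysltr2, Ly6a, Kdr, Vtn and Pdgfrb were higher in KO, and Klf2 and Slc2a1 were lower. The median log2 fold change was 0.20 over the endothelial genes (15 of 23 positive) and 0.32 over the mural genes (10 of 13 positive), against 0.03 over all genes. Without the KO ethanol library F1, the 5 calls of Cldn5, Cysltr2, Ly6a, Klf2 and Slc2a1 were left, with medians of 0.15 and 0.19, where 5.01% of all genes passed. Without the shallow KO ethanol library F3 there were 15 calls (12 endothelial and 3 mural), where the share of all genes also rose, to 22.2%. Without WT ethanol M3 there were 11 (7 and 4), where 7.7% of all genes passed. The count was also 5 without KO ethanol M1 or M3 or without WT ethanol F3 or M1 (4.22% to 7.78% of all genes), 4 without WT ethanol F1 (4.92%), and 3 when only the 8 libraries of these groups were fitted (3.32%).

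In the ethanol-exposed hippocampus, Cldn5 and Cysltr2 were higher in KO than in WT mice, and no other member passed, where 0.171% of 23394 genes did. Medians were 0.07 over the endothelial genes, 0.04 over the mural genes and 0.01 over all genes. In the saline-exposed vermis, Ly6a, Ly6c1 and Klf2 were higher in KO, where 4.91% of all genes passed. There the medians were 0.09 (endothelial), 0.16 (mural, 12 of 13 positive) and -0.02 (all genes). Without KO ethanol F1 or F3, or when only the saline groups were fitted, 6 members passed in that comparison (4 endothelial and 2 mural), where 5.21% to 6.07% of all genes did. Without WT saline F1 the same 3 members passed, and the mural median was 0.30. In the saline-exposed hippocampus no member passed with edgeR, where 0.00427% of all genes did, while 18 members (8 endothelial and 10 mural) had an unadjusted p below 0.05, as did 8.85% of all genes. DESeq2 called 4 members and 1.14% of all genes.

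Ethanol against saline in KO mice gave 2 calls in the vermis, Cldn5 higher and Klf2 lower, where 0.0891% of all genes passed, and 5 endothelial calls without KO ethanol F3, where 2.68% did. It gave none in the KO hippocampus (0.0513% of all genes), where 9 members and 9.31% of all genes had an unadjusted p below 0.05, and DESeq2 called 3 members and 0.524% of all genes. In the WT hippocampus no member passed (0% of all genes), with 11 members and 10.5% of all genes below an unadjusted 0.05, and 1 member and 0.695% of all genes called by DESeq2. In the WT vermis no member passed either (0.00446% of all genes), with 3 members and 5.32% of all genes below 0.05 and 0 members called by DESeq2.

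**Figure D2:**
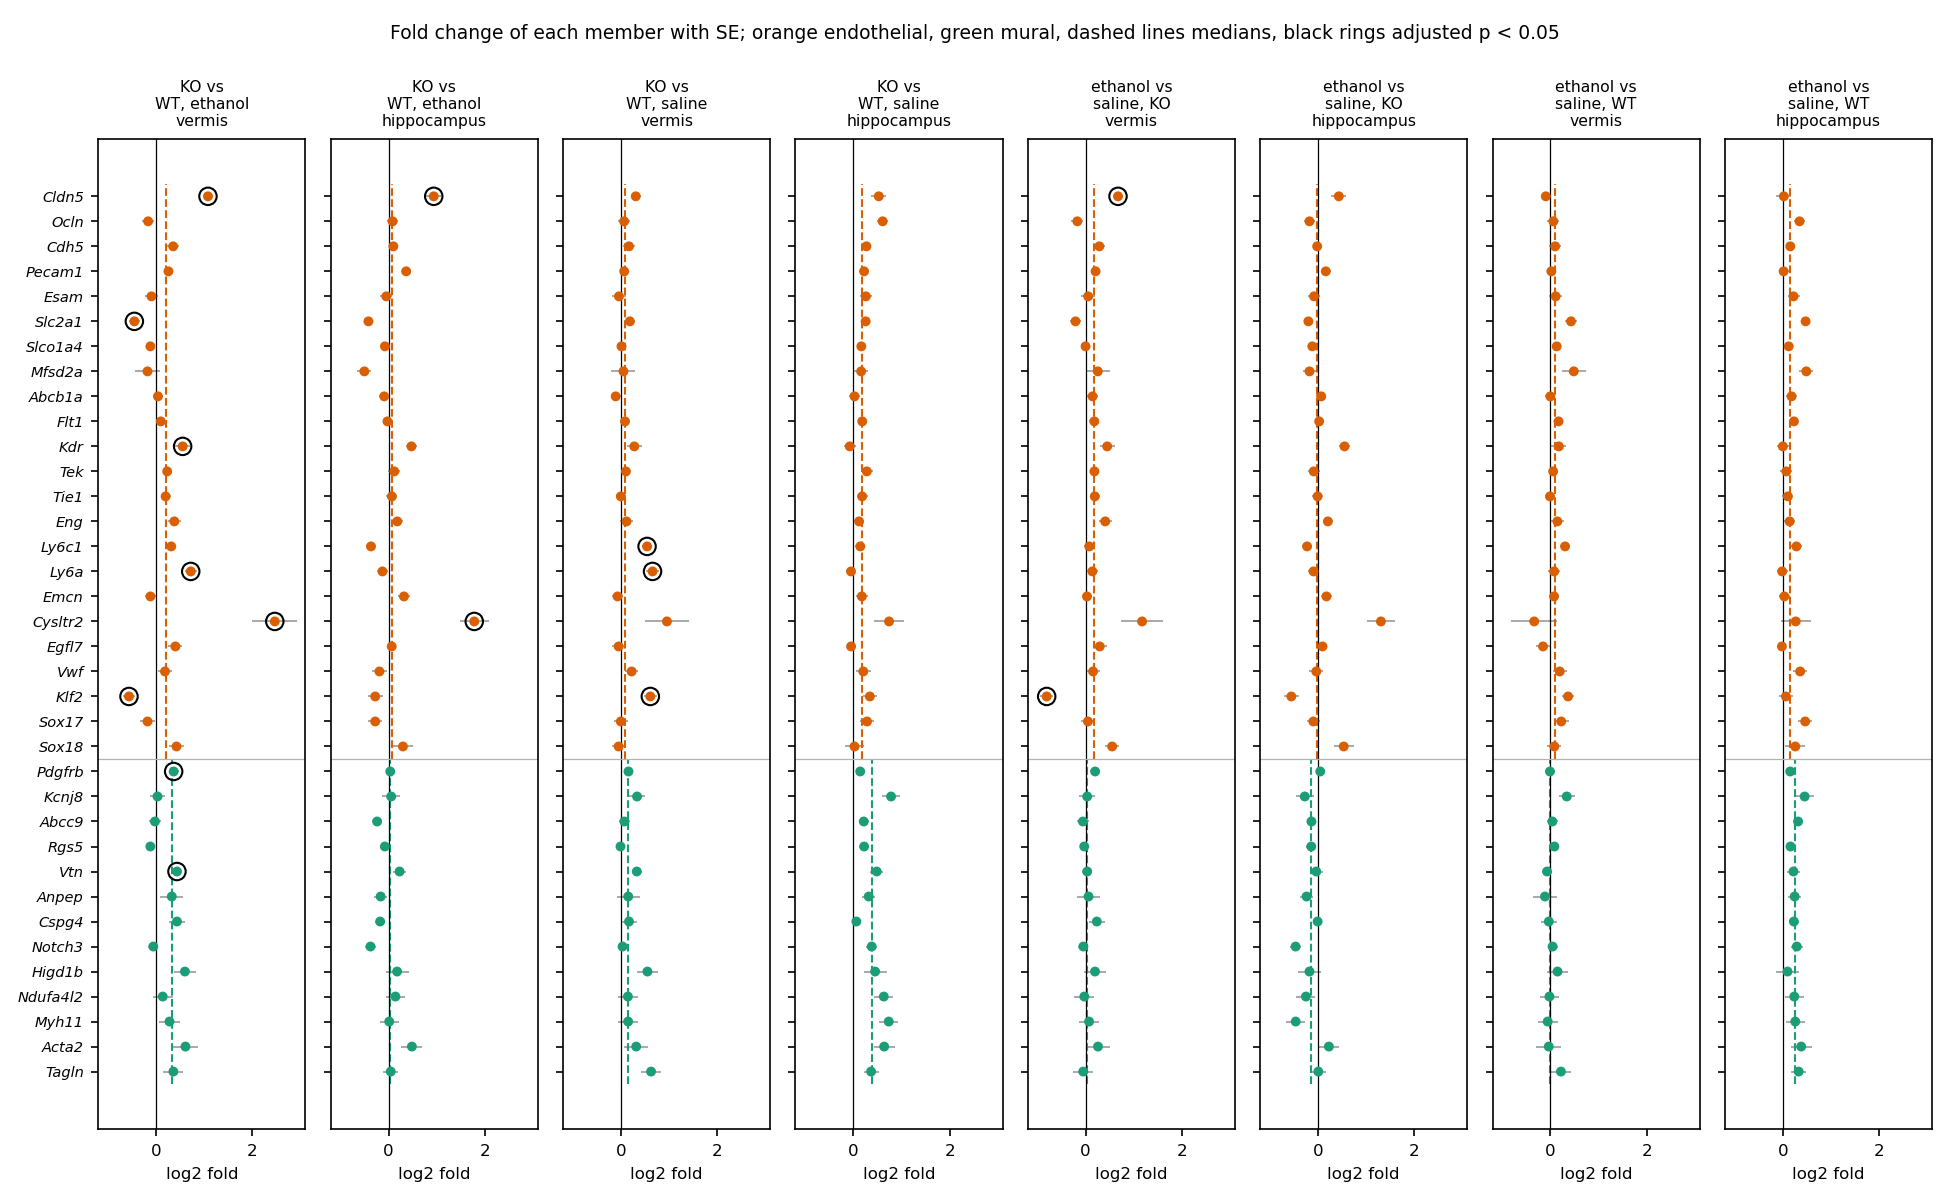
Log2 fold change with its standard error for each member (rows, by role) in the 8 comparisons of genotype and exposure (panels), with dashed lines at the medians of the endothelial and mural genes and black rings around values whose adjusted p is below 0.05. Cldn5 carries a ring in 3 panels, Klf2 in 3, Cysltr2 and Ly6a in 2 each, and Kdr, Slc2a1, Ly6c1, Vtn and Pdgfrb in 1 each.

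Claudin-5, encoded by Cldn5, is the main sealing protein of brain endothelial tight junctions. In libraries F1, F3, M1 and M3, the order used throughout, vermis Cldn5 was at 48.1, 34.3, 43.2 and 41.3 CPM in KO ethanol mice, at 27.6, 23.6, 27.3 and 27.3 in KO saline mice, at 18, 20.3, 18.9 and 23.5 in WT ethanol mice and at 22.3, 21.1, 19.8 and 22.5 CPM in WT saline mice. All 4 KO ethanol libraries were above every other vermis library, and the KO saline libraries were above all WT ones. KO exceeded WT under ethanol 2.11-fold (log2 1.08 ± 0.10 SE, adjusted p = 5.33e-06), in all 16 fits that left out 1 library and in the fit of these 8 libraries alone. Ethanol exceeded saline in KO mice 1.59-fold (0.67 ± 0.10, adjusted p = 0.0247), and that call was lost without KO ethanol M1 or M3 or without any 1 KO saline library (adjusted p up to 0.128), and when only the KO groups were fitted (0.429). The KO effect was larger under ethanol than under saline by a log2 difference of 0.77 ± 0.14, which did not pass (adjusted p = 0.0555), and KO against WT under saline gave 0.31 ± 0.10 (adjusted p = 0.114).

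In the hippocampus, Cldn5 was at 29.4, 26.2, 33.2 and 24.6 CPM in KO ethanol mice and at 22, 21.2, 18.6 and 22.3 CPM in KO saline mice, against 14.5, 10.7, 16.7 and 18.2 CPM in WT ethanol and 10.8, 13.1, 14.8 and 20.4 CPM in WT saline mice. The KO ethanol libraries again lay above all others, while KO saline libraries overlapped WT saline through 1 WT mouse, M3. KO exceeded WT under ethanol 1.92-fold (0.94 ± 0.16, adjusted p = 0.029). This call was lost without KO ethanol F1, F3 or M1, any 1 WT ethanol library or WT saline F3 (adjusted p up to 0.12), without the sex term (0.0633) and in the fit of these groups alone (0.093), with the log2 fold change between 0.83 and 1.00. The differences under saline (0.53 ± 0.16, adjusted p = 0.286) and with ethanol in KO mice (0.43 ± 0.16, adjusted p = 0.447) did not pass.

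The other junction and adhesion genes did not pass in any of the 8 comparisons. Ocln, which encodes the tight junction protein occludin, was at 13.4, 18.7, 16.7 and 19.2 CPM in KO saline hippocampi, against 9.85, 10.1, 13.4 and 11 CPM in WT saline ones. The groups did not overlap, although KO F1 and WT M1 were equal to 3 digits, and the difference (0.61 ± 0.12) had an adjusted p of 0.105, or 0.0343 without WT saline M1. Pecam1, the endothelial adhesion molecule CD31, was at 16.5, 16.6, 20.1 and 17.2 CPM in KO ethanol hippocampi, against 12.1, 13, 13.9 and 15.7 CPM in WT ethanol ones. These groups did not overlap, with a log2 fold change of 0.37 ± 0.11 and an adjusted p of 0.234. Cdh5 (VE-cadherin, of adherens junctions) and Esam (an endothelial adhesion molecule) ranged from -0.02 to 0.35 and from -0.10 to 0.26 on the log2 scale over the 8 comparisons.

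**Figure D3:**
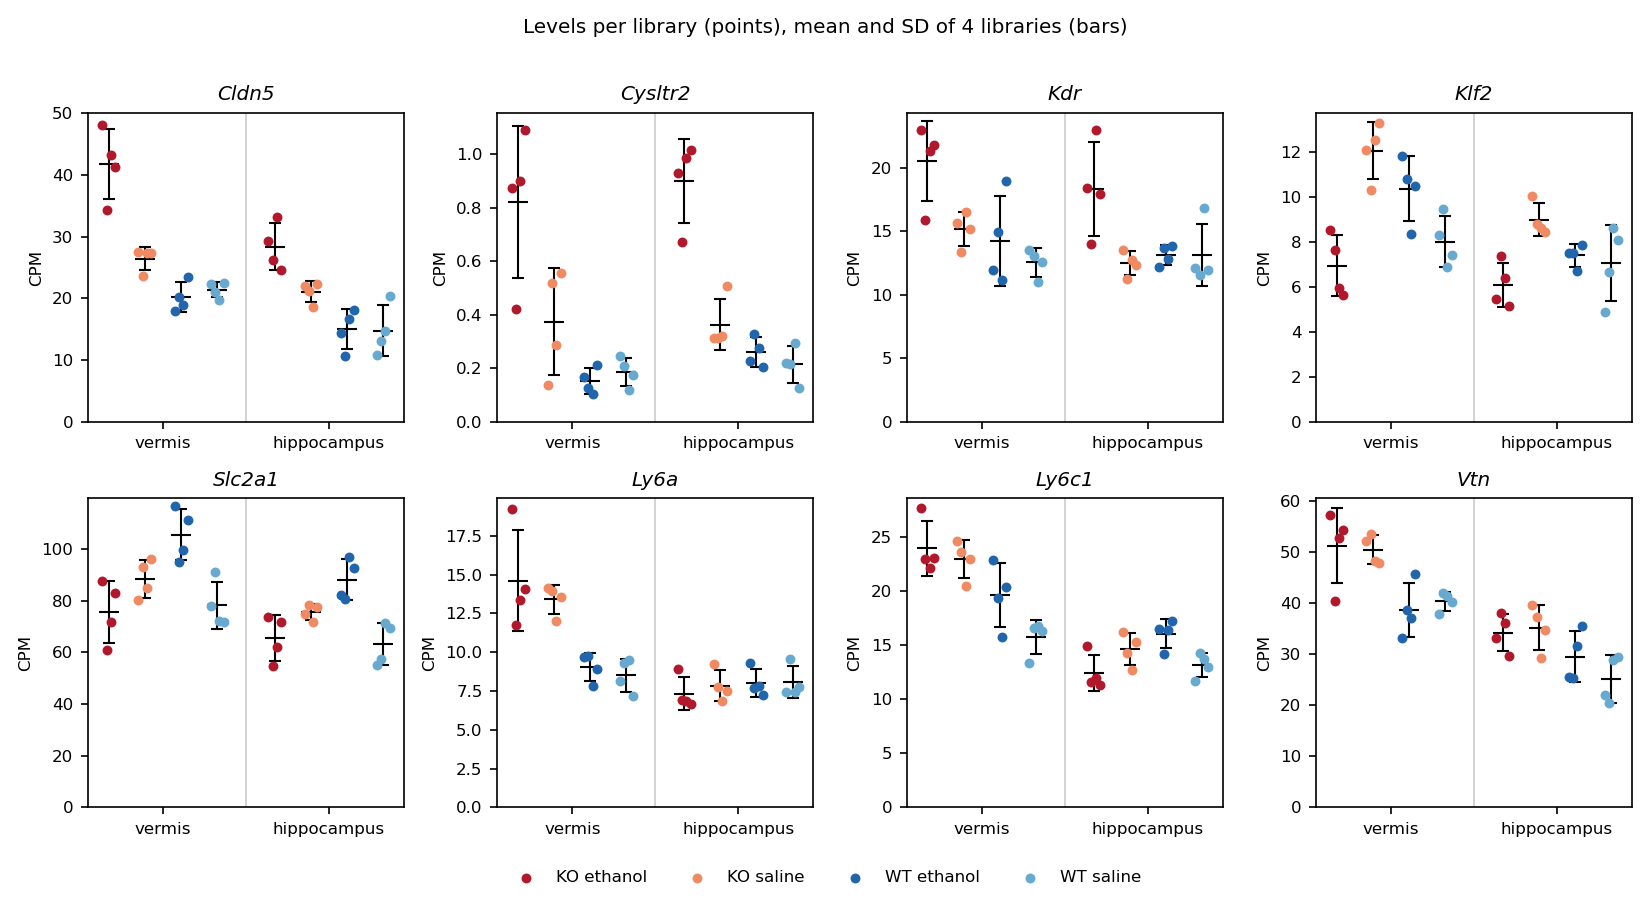
CPM of 8 members in each library (points) with the group mean and SD, for the 4 groups of each region from KO ethanol to WT saline. The 4 KO ethanol points of Cldn5 lie above all other points in both regions (34.3 to 48.1 CPM in the vermis and 24.6 to 33.2 CPM in the hippocampus). Klf2 in the vermis has its highest group mean in KO saline mice (10.3 to 13.3 CPM), which overlap WT ethanol mice.

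Among the 4 transport genes, Slc2a1 encodes GLUT1, which carries glucose across the barrier and is also made by glia. In the vermis it was at 87.8, 61.0, 71.6 and 83.0 CPM in KO ethanol mice, against 117, 95, 99.6 and 111 CPM in WT ethanol mice, with no overlap. It fell by 0.45 ± 0.12 on the log2 scale in KO mice (0.731-fold, adjusted p = 0.0259). The call was lost without KO ethanol M1 or WT ethanol F1 or M3 (adjusted p up to 0.0609) and in the fit of these groups alone (0.136). KO saline mice had 80.2, 93.1, 84.8 and 96.2 CPM and WT saline mice 77.9, 91.2, 72.3 and 71.6 CPM. WT ethanol exceeded WT saline in every library, but the difference (0.43 ± 0.11) did not pass (adjusted p = 0.905).

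In the hippocampus Slc2a1 was at 73.8, 54.6, 62.1 and 71.7 CPM in KO ethanol, 74.8, 78.4, 71.7 and 77.6 in KO saline, 82.2, 80.7, 96.9 and 92.7 in WT ethanol and 55.1, 57.4, 71.3 and 69.5 CPM in WT saline mice. WT ethanol was above every other group without overlap. The exposure difference was lower in KO than in WT mice by 0.67 ± 0.13 on the log2 scale (interaction, adjusted p = 0.0493, where 0.175% of all genes passed and Slc2a1 was the only member). That call held in 1 of the 16 fits that left out a library, the one without KO ethanol F1 (adjusted p = 0.0288), and reached 0.129 in the others. It was also lost without the sex term (0.0884). The parts of this contrast, ethanol against saline in WT (0.48 ± 0.09, adjusted p = 0.186) and in KO mice (-0.20 ± 0.09, adjusted p = 0.51), and KO against WT under ethanol (-0.42 ± 0.09, adjusted p = 0.0815), did not pass. In the vermis the same interaction was -0.64 ± 0.16 (adjusted p = 0.212).

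Mfsd2a, a lipid transporter that keeps vesicle traffic across brain endothelium low, was at 15.8, 13.4, 13.6 and 15.4 CPM in KO ethanol hippocampi, against 21.8, 16.2, 22.8 and 22.1 CPM in WT ethanol ones. The groups did not overlap, and the difference (-0.50 ± 0.14) had an adjusted p of 0.231. WT saline hippocampi had 11.3, 15.1, 16.9 and 15.6 CPM, and WT ethanol against WT saline gave 0.49 ± 0.14 (adjusted p = 0.313). Slco1a4, an organic anion transporter, and Abcb1a, the drug efflux pump P-glycoprotein, stayed between -0.12 and 0.17 and between -0.11 and 0.18 in all 8 comparisons. All 4 transport genes had negative values in KO against WT hippocampi under ethanol, with a median of -0.25.

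The 5 receptor genes encode VEGF receptors (Flt1 and Kdr), angiopoietin receptors (Tek and Tie1, the second an orphan partner of the first) and endoglin (Eng), a coreceptor for BMP ligands. Kdr, the main signalling receptor for VEGF-A, was at 23, 15.9, 21.3 and 21.8 CPM in KO ethanol vermes, against 12.0, 15, 11.1 and 19.0 CPM in WT ethanol ones. The groups overlapped through KO F3 and WT M3. The rise in KO was 1.46-fold (0.55 ± 0.15, adjusted p = 0.0408), a call that held without KO ethanol F3 (0.00957) or WT ethanol M3 (0.00537) and was lost in the other 14 left-out fits, among them that without F1 (0.137). It was also lost without the low-count filter (0.0545) and in the fit of these groups alone (0.222).

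In the hippocampus Kdr was at 18.4, 14, 22.9 and 17.9 CPM in KO ethanol mice, 13.5, 11.3, 12.8 and 12.3 in KO saline mice, 12.2, 13.7, 12.8 and 13.8 in WT ethanol mice and 12.1, 11.6, 16.8 and 12.0 CPM in WT saline mice. KO ethanol was above KO saline and above WT ethanol without overlap. Neither difference passed: 0.55 ± 0.12 against KO saline (adjusted p = 0.153, with DESeq2 at 0.0124) and 0.48 ± 0.12 against WT ethanol (adjusted p = 0.163). Flt1, Tek, Tie1 and Eng passed in no comparison, with log2 values between -0.09 and 0.41.

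Among surface and secreted products, Cysltr2 encodes a receptor for cysteinyl leukotrienes, lipid mediators that raise vessel permeability. Its counts were low, and they hold fewer read pairs than counts if both mates of a pair were counted. In the vermis it was at 0.873, 0.423, 0.899 and 1.09 CPM in KO ethanol mice (50, 10, 38 and 66 counts) and at 0.136, 0.519, 0.286 and 0.556 CPM in KO saline mice, against 0.168, 0.126, 0.103 and 0.212 CPM in WT ethanol mice (8, 8, 6 and 10 counts) and 0.245, 0.209, 0.120 and 0.175 CPM in WT saline mice. Every KO ethanol library exceeded every WT library. KO exceeded WT under ethanol 5.51-fold (2.46 ± 0.47, adjusted p = 0.00344), and the call held in all 16 left-out fits.

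In the hippocampus Cysltr2 was at 0.928, 0.671, 0.984 and 1.01 CPM in KO ethanol mice and at 0.314, 0.313, 0.319 and 0.507 CPM in KO saline mice, against 0.227, 0.330, 0.277 and 0.207 CPM in WT ethanol mice and 0.221, 0.215, 0.295 and 0.127 CPM in WT saline mice. The KO ethanol libraries did not overlap any other group, and KO saline was above WT saline without overlap. KO exceeded WT under ethanol 3.43-fold (1.78 ± 0.30, adjusted p = 0.0252). The call was lost without KO ethanol F1, M1 or M3 or WT ethanol F1, M1 or M3 (adjusted p up to 0.116) and in the fit of these groups alone (0.093). Ethanol against saline in KO hippocampi gave 1.31 ± 0.29 (adjusted p = 0.153, with DESeq2 at 0.0182), and the interaction passed in neither region (adjusted p = 0.428 and 0.414).

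Ly6a (Sca-1) and Ly6c1 are GPI-anchored surface proteins of mouse brain endothelium and have close paralogs, so counts could include shared reads. In the vermis Ly6a was at 19.3, 11.8, 13.4 and 14.1 CPM in KO ethanol mice and at 14.1, 13.9, 12.0 and 13.6 CPM in KO saline mice, against 9.71, 9.79, 7.82 and 8.91 CPM in WT ethanol mice and 8.15, 9.30, 9.47 and 7.18 CPM in WT saline mice. No KO library overlapped a WT library. KO exceeded WT 1.64-fold under ethanol (0.72 ± 0.13, adjusted p = 0.00221) and 1.58-fold under saline (0.66 ± 0.13, adjusted p = 0.00474). The call under ethanol was lost when only the 2 ethanol groups were fitted (adjusted p = 0.0503).

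In the hippocampus Ly6a was at 8.90, 6.89, 6.86 and 6.66 CPM in KO ethanol, 9.27, 7.77, 6.88 and 7.48 in KO saline, 9.33, 7.71, 7.83 and 7.23 in WT ethanol and 7.45, 9.59, 7.47 and 7.75 CPM in WT saline mice. All groups overlapped. The KO effect on Ly6a was larger in the vermis than in the hippocampus by 0.81 ± 0.13 on the log2 scale under ethanol (adjusted p = 0.00127, where 2.39% of all genes passed) and by 0.70 ± 0.13 under saline (adjusted p = 0.00291, where 3.36% did). With an offset for gene length the saline difference was lost (0.42, adjusted p = 0.0986).

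Ly6c1 in the vermis was at 27.7, 23, 22.1 and 23 CPM in KO ethanol, 24.6, 23.6, 20.5 and 22.9 in KO saline, 22.9, 19.3, 15.8 and 20.4 in WT ethanol and 13.4, 16.6, 16.7 and 16.3 CPM in WT saline mice. KO saline did not overlap WT saline and exceeded it 1.46-fold (0.54 ± 0.11, adjusted p = 0.0049). Under ethanol the difference was 0.31 ± 0.11 (adjusted p = 0.0879). The regional difference of the KO effect passed under ethanol (0.67 ± 0.11, adjusted p = 0.00105). Under saline it was 0.39 ± 0.10 (adjusted p = 0.0483), held without mouse WT ethanol F1 or M1, and was lost in the other 14 fits that left out a mouse (adjusted p up to 0.155) and with the length offset (0.416). Ly6a and Ly6c1 were the only members to pass either regional difference. In the hippocampus Ly6c1 gave -0.37 ± 0.11 in KO against WT under ethanol (adjusted p = 0.235). Emcn, Egfl7 and Vwf, which encode endomucin, a secreted endothelial factor and von Willebrand factor, passed in none of the 8 comparisons, with values between -0.19 and 0.40.

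Klf2 encodes a transcription factor that endothelial cells induce under blood flow, although other cells also make it. It moved in opposite directions under the 2 exposures. In the vermis it was at 8.5, 7.61, 5.96 and 5.65 CPM in KO ethanol mice and at 12.1, 10.3, 12.5 and 13.3 CPM in KO saline mice, against 11.8, 10.8, 8.35 and 10.5 CPM in WT ethanol mice and 8.30, 9.44, 6.89 and 7.42 CPM in WT saline mice. KO saline lay above WT saline without overlap, and KO ethanol lay below KO saline without overlap. KO ethanol overlapped WT ethanol through KO F1 (8.5 CPM) and WT M1 (8.35 CPM). Under saline KO exceeded WT 1.53-fold (0.61 ± 0.13, adjusted p = 0.00895), and under ethanol Klf2 fell by 0.56 ± 0.13 in KO (0.676-fold, adjusted p = 0.0145). Both calls held in all 16 left-out fits.

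With ethanol, Klf2 fell by 0.81 ± 0.13 in KO vermes (0.571-fold of saline, adjusted p = 0.0338), and gave 0.37 ± 0.13 in WT vermes (adjusted p = 0.905). The interaction was -1.18 ± 0.18 (adjusted p = 0.0275, where 0.107% of all genes passed). The fall in KO was lost without KO ethanol M1 or M3, KO saline F1, M1 or M3 or WT saline M3 (adjusted p up to 0.172), without the sex term (0.0592) and in the fit of the KO groups alone (0.592). The interaction was lost without KO ethanol M1, KO saline M1 or M3, WT ethanol F1 or WT saline F1, M1 or M3 (adjusted p up to 0.0854). In the hippocampus Klf2 was at 5.47, 7.35, 6.38 and 5.14 CPM in KO ethanol, 10.1, 8.78, 8.59 and 8.45 in KO saline, 7.51, 7.49, 6.69 and 7.88 in WT ethanol and 4.88, 6.64, 8.61 and 8.08 CPM in WT saline mice. KO ethanol again lay below KO saline without overlap, with a difference of -0.55 ± 0.15 (adjusted p = 0.298) and an interaction of -0.62 ± 0.21 (adjusted p = 0.331). Sox17 and Sox18, which specify arterial and other endothelium, passed in none of the 8 comparisons, with values between -0.28 and 0.55.

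Among the 10 pericyte genes, Vtn and Pdgfrb passed, both in KO against WT vermes under ethanol. Vtn, which encodes the matrix protein vitronectin, was at 57.2, 40.5, 52.8 and 54.4 CPM in KO ethanol vermes and at 52.2, 53.6, 48.3 and 47.9 CPM in KO saline ones, against 33.1, 38.7, 37.0 and 45.7 CPM in WT ethanol and 37.9, 42.1, 41.4 and 40.1 CPM in WT saline ones. KO ethanol overlapped WT ethanol through KO F3 and WT M3, whereas KO saline did not overlap WT saline. The rise under ethanol was 1.35-fold (0.43 ± 0.10, adjusted p = 0.0173). It was lost without KO ethanol F1 (0.0567) or M3 or WT ethanol F1, F3 or M1 (adjusted p up to 0.0849), with the length offset (0.0561) and in the fit of these groups alone (0.147). Under saline the difference of 0.33 ± 0.10 did not pass (adjusted p = 0.0918), except without KO ethanol F1 (0.0487) or F3 (0.0215), with DESeq2 (0.0472) or with the saline groups alone (0.00332).

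Pdgfrb, the receptor for PDGF-B, was at 26.8, 21.8, 23.4 and 23.4 CPM in KO ethanol vermes, against 17.7, 16.8, 20.5 and 20.5 CPM in WT ethanol ones. The groups did not overlap, as for 12.7% of all genes, and the rise was 1.29-fold (0.36 ± 0.10, adjusted p = 0.0422). The call held in 4 of the 16 left-out fits, those without KO ethanol F3, WT ethanol M3 or WT saline F1 or M1, and reached 0.156 in the others, with 0.137 without F1. It was also lost with RLE size factors (0.0525) and in the fit of these groups alone (0.119). Ethanol against saline in KO vermes gave 0.20 ± 0.10 (adjusted p = 0.386) for Pdgfrb and 0.23 ± 0.17 (adjusted p = 0.505) for Cspg4, against 0.13 and 0.050 without KO ethanol F1 and 0.23 and 0.36 without F3. Cspg4 encodes the proteoglycan NG2, which oligodendrocyte precursors also make, and was at 16, 8.80, 9.61 and 13.7 CPM in KO ethanol and 10.7, 11.2, 10.2 and 9.32 CPM in KO saline vermes, with F1 the highest. The summed signal of 7 other oligodendrocyte precursor genes was 153 to 423 CPM in KO ethanol and 164 to 191 CPM in KO saline vermes, and its part in these values was not tested.

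In the hippocampus no pericyte gene passed. Notch3, the Notch receptor of mural cells, was at 9.79, 9.46, 11.5 and 10.2 CPM in KO ethanol, 15.7, 14.1, 14.3 and 12.5 in KO saline, 11.7, 12.0, 13.1 and 16.5 in WT ethanol and 9.50, 10.3, 13.9 and 9.67 CPM in WT saline mice. KO ethanol lay below KO saline and below WT ethanol without overlap. The differences were -0.47 ± 0.12 against KO saline (adjusted p = 0.261, with DESeq2 at 0.0475) and -0.38 ± 0.12 against WT ethanol (adjusted p = 0.291), WT ethanol against WT saline gave 0.29 ± 0.12 (adjusted p = 0.416), and the interaction was -0.76 ± 0.17 (adjusted p = 0.101).

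Kcnj8 and Abcc9 encode the subunits Kir6.1 and SUR2 of the pericyte KATP channel. Kcnj8 was at 2.64, 2.96, 2.07 and 3.40 CPM in KO saline hippocampi, against 1.30, 1.44, 1.5 and 2.19 CPM in WT saline ones, with overlap through KO M1 and WT M3 (0.78 ± 0.19, adjusted p = 0.177, with DESeq2 at 0.0178). In WT vermes it was at 3.39, 3.02, 2.78 and 3.05 CPM with ethanol, against 2.18, 1.73, 2.83 and 3.01 CPM with saline (0.34 ± 0.17, adjusted p = 0.919). Abcc9 was at 7.16, 8.11, 8.07 and 7.48 CPM in KO ethanol hippocampi, against 9.44, 8.58, 8.43 and 9.97 CPM in WT ethanol ones, without overlap (-0.24 ± 0.10, adjusted p = 0.46). WT saline hippocampi had 8.52, 7.27, 7.47 and 5.96 CPM of Abcc9, and WT ethanol against them gave 0.32 ± 0.10 (adjusted p = 0.336).

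Rgs5, a regulator of G-protein signalling and the pericyte gene with the highest level in the hippocampus, was at 94.4, 95.7, 92.9 and 82.2 CPM in KO saline hippocampi, against 73.5, 87.3, 77.1 and 72.9 CPM in WT saline ones. The groups overlapped (0.23 ± 0.10, adjusted p = 0.536), and Rgs5 ranged from -0.14 to 0.23 over the 8 comparisons. Anpep (aminopeptidase N), Higd1b and Ndufa4l2 passed in none of them, with values between -0.25 and 0.63.

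The 3 smooth muscle genes encode contractile or cytoskeletal proteins, and none passed. Myh11, smooth muscle myosin heavy chain, was at 4.01, 6.82, 6.88 and 4.27 CPM in KO ethanol, 8.01, 10.0, 6.68 and 5.97 in KO saline, 4.61, 5.21, 4.96 and 6.94 in WT ethanol and 4.99, 4.88, 4.68 and 3.66 CPM in WT saline hippocampi. KO saline was above WT saline without overlap (0.74 ± 0.19, adjusted p = 0.206, with DESeq2 at 0.0289), and KO ethanol against KO saline gave -0.46 ± 0.19 (adjusted p = 0.487). Acta2, smooth muscle actin, was at 6.41, 9.39, 8.19 and 6.77 CPM in KO saline hippocampi, against 4.72, 3.23, 6.12 and 5.87 CPM in WT saline ones. These also did not overlap (0.64 ± 0.22, adjusted p = 0.38).

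Tagln, the actin-binding protein transgelin, was at 3.38, 4.00, 3.56 and 4.05 CPM in KO saline vermes, against 2.26, 2.43, 2.59 and 2.48 CPM in WT saline ones, without overlap. The difference of 0.63 ± 0.21 had an adjusted p of 0.126, which was below 0.05 without KO ethanol F1 (0.0421) or F3 (0.047), with DESeq2 (0.0457) or with the saline groups alone (0.0133). WT ethanol vermes had 2.18, 2.49, 2.75 and 4.11 CPM of Tagln, and ethanol against saline in WT gave 0.22 ± 0.21 (adjusted p = 0.966), or 0.030 without WT ethanol M3, the highest of them. The Tagln locus overlaps other annotated genes, as do those of Sox17, Abcb1a, Notch3, Egfl7, Abcc9, Slc2a1, Eng and Ndufa4l2, and without a stated strand setting their reads may be mixed.

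In the saline-exposed hippocampus all 13 mural genes were positive in KO against WT mice, with a median log2 fold change of 0.38 (10 pericyte genes 0.35, 3 smooth muscle genes 0.64). Of the endothelial genes 20 of 23 were positive, with a median of 0.19, against 0.00 over all genes. KO libraries lay above all WT libraries for 5 mural genes (Myh11, Acta2, Tagln, Anpep and Ndufa4l2) and 7 endothelial genes (Cysltr2, Ocln, Cdh5, Tek, Tie1, Sox17 and Slc2a1), where 2.76% of all genes did. None of these differences passed adjustment over all genes. Summed levels of 9 fibroblast genes were 96.6 to 158 CPM in KO saline hippocampi and 66.2 to 194 CPM in WT saline ones, those of 9 basement membrane genes 217 to 249 CPM and 180 to 223 CPM, and those of 8 choroid plexus genes 31.9 to 1247 CPM and 53.7 to 1303 CPM. The mean log2 CPM of 10 ribosomal protein genes, a measure of the RNA, was 6.32 ± 0.13 in KO saline and 6.58 ± 0.16 in WT saline hippocampi (SD, n = 4 each). The part of these genes in the difference was not tested.

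With ethanol against saline in KO mice, 10 of 13 mural genes were negative (median -0.14) and endothelial genes were mixed (10 positive and 13 negative, median -0.02), against a median of 0.01 over all genes. In WT mice 34 of the 36 genes were positive with ethanol, with medians of 0.25 (mural), 0.16 (endothelial) and 0.01 (all genes). Levels of other lists differed between these groups too: mean log2 CPM was 4.22 ± 0.09 in WT ethanol and 3.99 ± 0.19 in WT saline hippocampi for basement membrane genes, 4.75 ± 0.71 and 3.95 ± 0.63 for blood cell genes, 9.56 ± 0.15 and 9.26 ± 0.29 for oligodendrocyte genes, 4.18 ± 0.85 and 3.37 ± 2.16 for choroid plexus genes and 6.38 ± 0.04 and 6.58 ± 0.16 for ribosomal protein genes (SD, n = 4 each), and their part was not tested. The interaction was negative for all 13 mural genes (median -0.32) and for 15 of 23 endothelial genes (median -0.16, and 0.01 over all genes). In the vermis these exposure medians were 0.03 (mural) and 0.18 (endothelial) in KO mice (-0.046 and 0.051 without KO ethanol F1), and -0.01 and 0.10 in WT mice (-0.092 and 0.0099 without WT ethanol M3).

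The mean log2 CPM of the endothelial genes minus that of the mural genes summarises the contrast per library. Its level depends on gene lengths, which are the same in all libraries, so only its shift between groups was read. A length bias that differs between groups could also shift it, and its part in this score was not tested. In the hippocampus it was 0.93 ± 0.05 in KO ethanol mice, 0.71 ± 0.05 in KO saline mice, 0.84 ± 0.03 in WT ethanol mice and 0.91 ± 0.09 in WT saline mice (SD, n = 4 each). The KO saline libraries (0.67 to 0.77) lay below all libraries of the other groups. In the vermis it was 0.85 ± 0.02 in KO ethanol, 0.72 ± 0.03 in KO saline, 0.88 ± 0.13 in WT ethanol and 0.79 ± 0.10 in WT saline mice. There KO saline lay below KO ethanol without overlap and overlapped both WT groups. As a score over chosen genes this difference has no test.

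**Figure D4:**
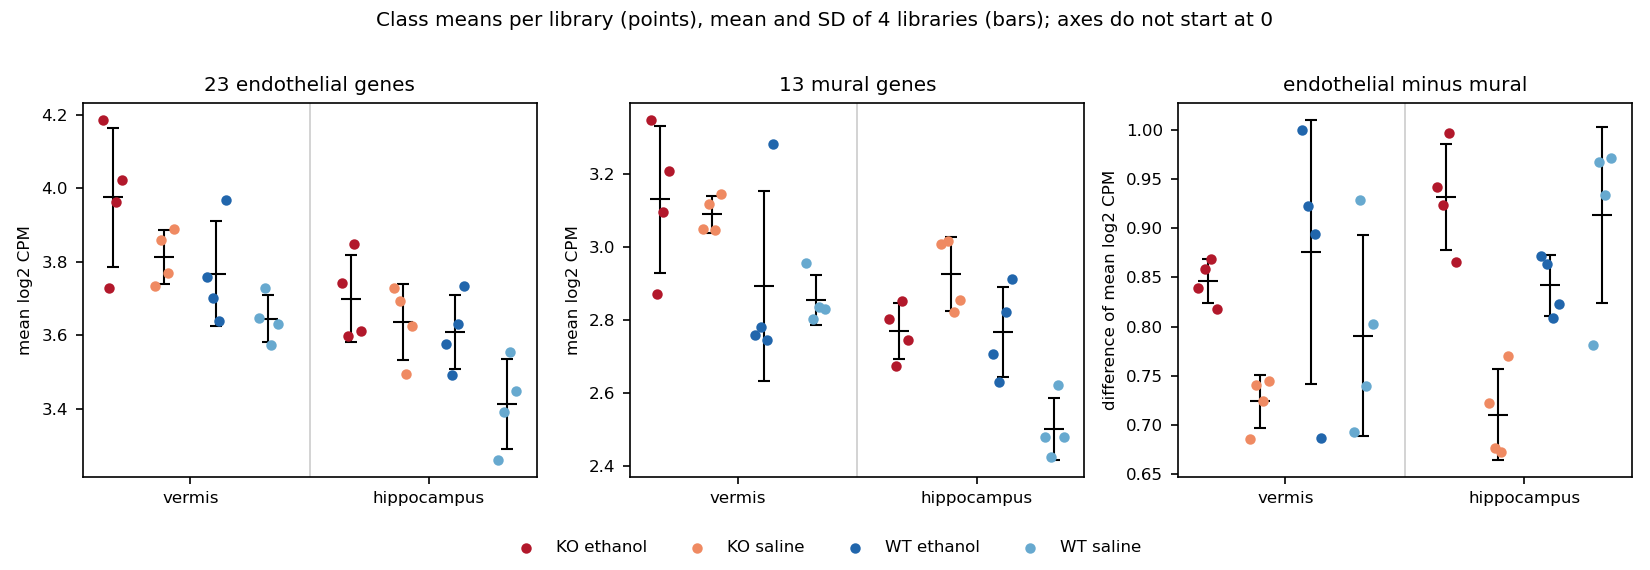
Mean log2 CPM of the 23 endothelial genes, of the 13 mural genes and their difference (panels) in each library (points), with the mean and SD of the 4 libraries of each group, for the vermis and the hippocampus. The axes do not start at 0. KO saline hippocampi have the lowest difference of that region, at 0.71 ± 0.05, and the WT ethanol vermis of M3 has a mural mean of 3.28 against 2.74 to 2.78 in the other 3 of its group.

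More members differed between regions than with genotype or exposure. Vermis against hippocampus, tested within mice over all 32 libraries, passed for 32 of 36 members, where 72.6% of all 24458 genes passed. Higher in the vermis were 18 endothelial and 10 mural genes, where 34.6% of all genes were higher, with medians of 0.25 (endothelial), 0.41 (mural) and -0.03 (all genes). Among the genes higher in the vermis, the largest difference was in Notch3, 1.74-fold higher in the vermis (0.80 ± 0.05, adjusted p = 2.3e-10): 17.5 to 26.9 CPM in the vermis against 9.46 to 16.5 CPM in the hippocampus, without overlap. Anpep (0.57), Ndufa4l2 (0.55), Vtn (0.55), Ly6c1 (0.53), Abcc9 (0.53), Ly6a (0.50) and Cldn5 (0.48) followed.

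Lower in the vermis, where 38% of all genes were lower, were Cspg4 (-0.82 ± 0.06), Acta2 (-0.48), Egfl7 (-0.43) and Mfsd2a (-0.33). For Cspg4, the summed signal of 7 other oligodendrocyte precursor genes was 153 to 423 CPM in the vermis, against 318 to 508 CPM in the hippocampus, and its part was not tested. Kdr (0.12 ± 0.06, adjusted p = 0.0738), Cysltr2 (-0.31 ± 0.18, 0.14), Sox18 (0.06 ± 0.07, 0.444) and Pdgfrb (-0.01 ± 0.04, 0.782) did not pass. The exposure difference between regions passed for no member in WT (0% of all genes) or KO mice (0.00409%) with edgeR or DESeq2. Females against males gave no member in the hippocampus (0.0769% of all genes) or the vermis (0.0535%) with either tool.

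**Figure D5:**
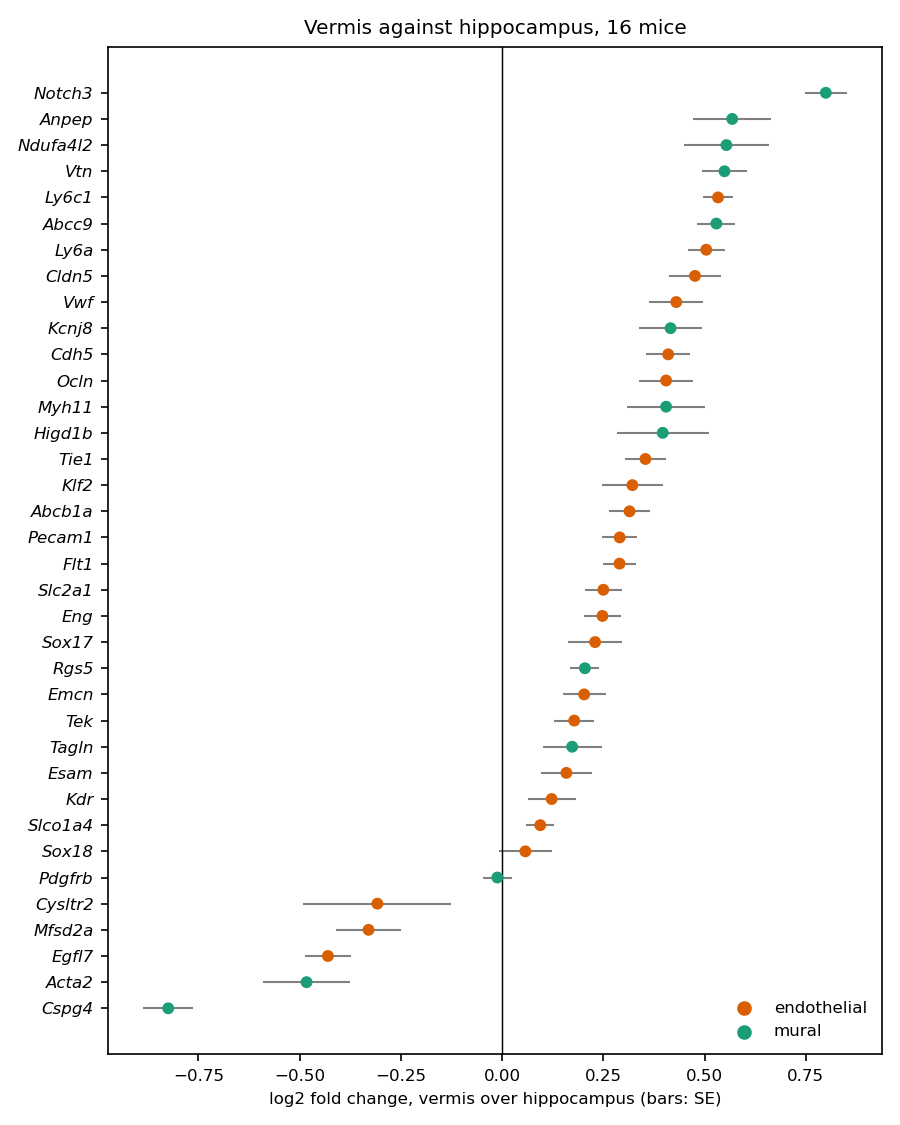
Log2 fold change of vermis over hippocampus with its standard error for the 36 members, sorted from Notch3 (0.80) to Cspg4 (-0.82), with endothelial and mural genes in different colours. Of the 36 values, 28 passed as higher and 4 as lower in the vermis.

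Other genes of the pathway were read from lists. None of 11 VEGF and angiopoietin genes, which include the ligands of Kdr, passed in any of the 8 comparisons with edgeR. In KO against WT vermes under ethanol 3 of them had an unadjusted p below 0.05, as did 25.5% of all genes. In that comparison 7.53% of all genes passed. There Fzd4, the endothelial receptor for Norrin, was lower (-0.66, adjusted p = 0.000407), the only 1 of 11 Wnt and Norrin genes to pass. Of 13 PDGF, TGF-beta and Notch genes, Tgfbr2 (0.73, adjusted p = 0.00187) and Notch1 (0.24, adjusted p = 0.0277) were higher. Of 17 other barrier genes, Slc7a5, a large neutral amino acid transporter, was lower (-0.51, adjusted p = 0.000278) and Slc16a1, a monocarboxylate transporter, was higher (0.30, adjusted p = 0.0326). Of the 10 other contractile genes 7 were tested and 0 passed, with 2 below an unadjusted p of 0.05, where 25.5% of all genes were.

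Slc7a5 passed in other comparisons too. It was lower in KO against WT hippocampi under ethanol (-0.44, adjusted p = 0.0366) and with ethanol in KO vermes (-0.43, adjusted p = 0.0339), and its interaction passed in the hippocampus (-0.68) and the vermis (-0.57, adjusted p = 0.0459). The interaction of Fzd4 in the vermis was -0.87 (adjusted p = 0.0275).

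Markers of neighbouring structures also differed in KO against WT vermes under ethanol, where 7.53% of all genes passed. Of 9 fibroblast genes 5 were higher (Slc6a13, Col1a1, Col3a1, Igf2 and Dcn), with summed levels of 147 to 247 CPM in KO ethanol vermes and 93.0 to 168 CPM in WT ethanol ones. Of 9 basement membrane genes 3 were higher (Col4a1 0.60, Col4a2 0.60 and Hspg2 0.44), with sums of 193 to 215 CPM and 156 to 196 CPM. Of 5 blood cell genes 2 were higher (Hbb-bs and Hbb-bt), with sums of 767 to 22933 CPM in KO ethanol and 256 to 1136 CPM in WT ethanol vermes, and the highest sum was in F1. Of 10 ribosomal protein genes 9 were higher, all but Rpl4, with a median log2 fold change of 1.02. Under saline, where 4.91% of all genes passed, 8 were higher, all but Rpl3 and Rpl4, with a median of 0.90. Of 8 choroid plexus genes 1 (Kl) was higher too. No gene of the fibroblast, basement membrane, blood cell or ribosomal lists was at 0 in any library. The part of these tissues and of RNA quality in the values of the vessel genes was not tested.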

How the data were processed

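The gene table held whole-number counts of reads per gene, not normalized, as deposited by the authors, with a gene length in bases beside them. The submitters' processing notes name the genome build GRCm39 and the tools STAR 2.7.10a, featureCounts 2.0.6, cutadapt 5.0, bcl2fastq and DESeq2. Whether counting used strand is not given in the sources used here. Of counts from 1 to 20, 85.1% to 91.6% per library were even, as when both mates of a pair are counted. No 2 libraries of a group agreed within sampling noise (lowest chi-square per degree of freedom 9.05 over 48 pairs).

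Counts were tested with edgeR 4.0.16 (R 4.3.3, limma 3.58.1) by the robust quasi-likelihood F-test after filterByExpr and TMM scaling. The 16 libraries of a region were fitted together with sex as a covariate. Regions were compared over all 32 libraries with mouse as a block. P-values were adjusted by Benjamini-Hochberg over all genes tested, 23394 in the hippocampus, 22441 in the vermis and 24458 across regions, with a threshold of 0.05. CPM used TMM over all 32 libraries, mean log2 CPM a prior count of 2, and SE is the log2 fold change divided by the square root of F. The interaction is the ethanol effect in KO minus that in WT. The fits were tested on simulated counts. Alternatives were DESeq2 1.42.0, RLE size factors, no low-count filter, no sex term, a replicate block, no mouse block, a length offset, only the groups compared, and leaving out each library or mouse.

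The members and lists were chosen with earlier results of these data known. Values per library are given for members that passed in an exposure, genotype or interaction comparison, for the 2 endothelial and 2 mural members with the smallest p in each, and for Cldn5, Pecam1, Pdgfrb, Rgs5, Acta2 and Myh11. Most genes of other lists that passed are named.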

Additional observations from a re-analysis of the deposited data

Results flagged for a closer look

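Of 160 groups of 4 libraries examined for a single value far from the rest, 11 held one, and chance gives about 1 in 20. In KO saline mice, vermis Cldn5 of F3 was at 23.6 CPM (the other 3 at 27.3 to 27.6) and hippocampal Cysltr2 of M3 was at 0.507 CPM (0.313 to 0.319). In KO ethanol mice, F1 was high for hippocampal Ly6a at 8.90 CPM (6.66 to 6.89) and for vermis Ly6c1 at 27.7 CPM (22.1 to 23). In WT ethanol mice, hippocampal Mfsd2a of F3 was at 16.2 CPM (21.8 to 22.8), and the vermis of M3 was high for Myh11 at 10.0 CPM (5.78 to 6.08) and for the mural mean at 3.28 log2 CPM (2.74 to 2.78). In WT saline mice, hippocampal Kdr of M1 was at 16.8 CPM (11.6 to 12.1), hippocampal Ly6a of F3 at 9.59 CPM (7.45 to 7.75), vermis Ly6c1 of F1 at 13.4 CPM (16.3 to 16.7) and vermis Myh11 of F1 at 9.11 CPM (6.21 to 6.64).

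In 6 cases an effect differed between 2 groups by a test of the difference itself. The ethanol effect differed between KO and WT mice by -0.67 on the log2 scale for Slc2a1 in the hippocampus and by -1.18 for Klf2 in the vermis. The KO effect differed between vermis and hippocampus for Ly6a by 0.70 under saline and 0.81 under ethanol, and for Ly6c1 by 0.39 under saline and 0.67 under ethanol. Over the alternative fits the Slc2a1 call was lost in 17 and held in 5. The Ly6c1 call under saline was lost in 18 and held in 3, and the Klf2 call was lost in 8 and held in 14. For Ly6a under saline 1 fit lost the call and 20 held it, and both calls under ethanol held in all 21.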

How the results depend on the processing

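No value changed sign as a call under any alternative run. Of the comparisons of single genes with their main value, 1495 kept their side of the threshold, 131 fell below it and 25 rose past it.

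Counts of members past the threshold moved by more than 1.5 times as follows. With DESeq2, WT ethanol against saline in the hippocampus gave 1 (main 0), KO ethanol against saline 3 (0), KO against WT under saline 4 (0), KO against WT under ethanol 4 (2) and the interaction 2 (1), and in the vermis KO against WT under saline gave 5 (3) and the interaction 3 (1). Of all genes DESeq2 called 0.524% to 1.41% in these hippocampal comparisons. Without the low-count filter these 5 hippocampal counts were 2, 5, 6, 5 and 4 (1.1% to 2.38% of 39027 genes), females against males gave 1 (0), the vermis interaction 2 (1) and the saline regional difference 1 (2). Without the sex term, KO against WT under ethanol in the hippocampus gave 1, its interaction 0, ethanol against saline in KO vermes 1 and the vermis interaction 2. With only the groups compared, KO against WT under ethanol gave 0 in the hippocampus and 3 in the vermis (main 8), ethanol against saline in KO vermes 0 (2), and KO against WT under saline in the vermis 6 (3). The length offset gave 2 for the vermis interaction and 0 for the saline regional difference, which was 1 with RLE size factors or without the mouse block. Where no share of all genes stands beside a count, its move cannot be read as particular to the members.

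Leaving out 1 library at a time, counts ranged in the hippocampus from 0 to 1 for KO against WT under saline, 0 to 2 under ethanol and 0 to 1 for the interaction. In the vermis they ranged from 3 to 6 for KO against WT under saline, 4 to 15 under ethanol, 0 to 5 for ethanol against saline in KO and 0 to 2 for the interaction, and leaving out a mouse gave 1 to 2 for the saline regional difference. The share of all genes that passed also moved between fits, so these ranges cannot be read as particular to the members. The median log2 fold change ranged from 0.051 to 0.23 for endothelial genes with ethanol in KO vermes (main 0.18) and from 0.19 to 0.50 for mural genes in KO against WT vermes under ethanol (main 0.32). Other medians also moved by over 1.5 times, and not all are listed. For endothelial genes they did so in the hippocampal interaction (-0.256 to -0.0544, main -0.16) and with ethanol in WT vermes (0.0099 to 0.155, main 0.10). Endothelial medians in KO against WT vermes ranged from 0.10 to 0.30 under ethanol and from 0.054 to 0.12 under saline. The mural median there ranged from 0.10 to 0.30 under saline (main 0.16). In KO against WT hippocampi under ethanol the ranges crossed 0, from -0.0061 to 0.076 (endothelial) and from -0.037 to 0.084 (mural). So did the endothelial range with ethanol in KO hippocampi (-0.069 to 0.059). Causes were not tested.

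Replicate labels are shared across groups but no source says that they pair mice. Deviations of libraries with the same label correlated between -0.68 and 0.55, and no label had all its pairs above 0.1. These values cannot show whether some libraries of a label share a litter or a processing day. With a replicate block, KO against WT under ethanol in the hippocampus gave 1 call, with Cldn5 at an adjusted p of 0.0549, and its interaction gave 0, with Slc2a1 at 0.0535. Ethanol against saline in KO vermes gave 1, with Klf2 at 0.0723, and the vermis interaction 0, with Klf2 at 0.0591. Cysltr2 is limited by depth, with 6 to 67 counts per library, and fewer read pairs if both mates were counted.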
